A study of Mus musculus with 4 samples.

Results

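Imprinted growth genes are described here in cardiac cushions of mouse embryos: 10 genes, chosen by symbol from the 23337 gene rows of the deposited count table, of which 5 are expressed from the maternal chromosome in most embryonic tissues (H19, Igf2r, Meg3, Cdkn1c and Grb10) and 5 from the paternal one (Igf2, Dlk1, Peg3, Plagl1 and Mest). Cushions are thickenings of the embryonic heart wall from which valves and septa form. Total RNA from cushions of C57BL/6 embryos at embryonic day 14.5 was sequenced in 2 libraries labelled Wildtype and 2 labelled Nfatc1Cre;Brg1F/F, in which a Cre driven from the endocardial gene Nfatc1 deletes Brg1 (Smarca4), a motor subunit of chromatin remodellers. Tissue was taken by the GFP of a Cre reporter, and the series' text calls the samples pairs of mutants and littermates. The labels do not give the other alleles of the wildtype embryos, nor how many embryos went into each library. A p-value here reflects library-to-library spread alone, and part of that may be technical. In tests of single genes, that spread was estimated in part from the other genes. Pairs of values are given with replicate 1 first.

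In genomic imprinting, a methylation mark set in the egg or sperm leaves a gene active on the copy from 1 parent only. The counts do not tell the parental copies apart. Maternally or paternally expressed therefore names the known class of a gene and was not measured in these cushions. Paternally expressed members of this group tend to promote growth of the embryo, and maternally expressed members tend to restrain it. Igf2 encodes insulin-like growth factor 2, a secreted mitogen, and Igf2r the receptor that takes it to lysosomes for breakdown. H19 and Igf2 are neighbours that share enhancers, and a control region between them, which can bind the insulator protein CTCF, acts in their imprinting. Dlk1 and Meg3 form a similar pair of opposite parental expression.

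Gene reads numbered 14104458 to 22426537 a library, at which depth 3 reads equal 0.134 to 0.213 CPM (gene reads scaled to a common library size). Smarca4 itself gave 251 and 231 CPM in the wildtype libraries against 282 and 239 CPM in the mutant ones, so the counts over the whole gene showed no fall in the libraries labelled mutant. Such counts include exons outside any deletion and cells without Cre, and do not check the label; mutant below means the libraries so labelled. Markers of endocardium (10 of 10 tested) and cushion mesenchyme (10 of 10) were present, and cardiomyocyte markers (12 of 12) were abundant. By Xist and 4 Y-linked genes, mutant replicate 2 was almost wholly male (189 Xist reads, against 36708 to 60417 in the others), so sex and genotype cannot be told apart within pair 2. Leukocyte markers summed to 161 and 156 CPM in the wildtype libraries and 269 and 291 CPM in the mutant ones, and 4 of the 10 rose (edgeR adjusted p under 0.05). Their part in the values below was not tested. In bulk tissue, fewer cells of a type and less RNA per cell cannot be told apart.

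The promoters of Dlk1 and Meg3, of the chromosome 12 domain, are shown because both genes were lowest in wildtype replicate 1 and highest in mutant replicate 1. Igf2 on chromosome 7 had the same lowest and highest libraries. The promoter of Peg3 is shown because it shares a motif with that of Meg3. RefSeq windows of 300 bases (build GRCm38.p6) were matched for 8 of the 10 members, in 15 windows, and H19 and Cdkn1c had no entry. Meg3 had another window, chr12:109545148-109545447, which holds none of the motifs below and is not shown. Capitals mark matches, on either strand, to TGACGTCA (the cyclic AMP response element), TATAAA (the core promoter box that TBP binds) or GGGGCCCC (the core of the element that the Plagl1 protein is known to bind). Meg3, chr12:109540746-109541045, plus strand; Dlk1, chr12:109452573-109452872, plus strand; and Peg3, chr7:6730370-6730669, minus strand, read as follows.
Meg3: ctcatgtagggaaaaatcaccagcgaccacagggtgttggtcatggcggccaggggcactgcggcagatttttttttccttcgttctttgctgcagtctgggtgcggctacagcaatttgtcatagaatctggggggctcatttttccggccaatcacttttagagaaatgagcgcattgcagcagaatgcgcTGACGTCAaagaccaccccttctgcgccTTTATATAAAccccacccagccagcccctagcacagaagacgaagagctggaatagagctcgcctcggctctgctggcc
Dlk1: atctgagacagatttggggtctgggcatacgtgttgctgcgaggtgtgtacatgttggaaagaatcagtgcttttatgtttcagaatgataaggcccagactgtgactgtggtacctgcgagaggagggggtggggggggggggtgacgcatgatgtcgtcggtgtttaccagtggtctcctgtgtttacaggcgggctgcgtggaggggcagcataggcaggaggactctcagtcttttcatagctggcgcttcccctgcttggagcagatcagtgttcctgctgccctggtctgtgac
Peg3: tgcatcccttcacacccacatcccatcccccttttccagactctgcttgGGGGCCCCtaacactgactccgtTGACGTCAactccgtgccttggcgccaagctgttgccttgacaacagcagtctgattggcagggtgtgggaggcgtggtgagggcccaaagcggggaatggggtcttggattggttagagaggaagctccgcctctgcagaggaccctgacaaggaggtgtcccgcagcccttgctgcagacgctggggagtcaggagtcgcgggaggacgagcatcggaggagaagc

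TGACGTCA stood in 2 of the 15 member windows, in Meg3 and Peg3, and in 1.79% of all 32851 promoter windows. TATAAA stood in 1 member window, the Meg3 window shown, where matches on the 2 strands overlap in 1 run of capitals, and in 13.6% of all windows. GGGGCCCC stood in 1, that of Peg3, and in 1.08% of all windows. The Dlk1 window holds none of these letters. A match describes these letters and is not evidence of binding.

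H19 and Mest are also hosts of microRNAs, shown with the seed (bases 2 to 8) in capitals. Mature miR-675 lies within an H19 exon, and miR-335 within Mest outside its exons.
miR-675-5p: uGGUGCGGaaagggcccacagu
miR-675-3p: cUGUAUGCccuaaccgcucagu
miR-335-5p: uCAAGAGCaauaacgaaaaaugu
The 3 seeds differ. The row for the miR-675 precursor was at 0 reads in each library, while H19 had 103654 to 184221. The precursor row shares 84 exon bases with H19 on the same strand. A read there overlaps both rows and may have been left out as ambiguous, so the 0 does not show that the precursor was absent. The row for the miR-335 precursor had 114 and 27 reads in wildtype and 57 and 19 in mutant replicates 1 and 2, and such short precursors are not a measure of the mature microRNA.

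Per length of exon sequence, H19 was the most abundant member and Dlk1 the least. RPKM levels (gene reads scaled for library size and exon length, mean ± SD over all 4 libraries) were 3203 ± 576 for H19, 458 ± 60.1 for Igf2, 399 ± 29.0 for Igf2r, 239 ± 4.06 for Grb10 and 231 ± 28.8 for Mest. RPKM levels were 89.5 ± 21.7 for Cdkn1c, 72.5 ± 4.99 for Plagl1, 66.3 ± 5.75 for Peg3, 11.1 ± 2.57 for Meg3 and 2.58 ± 1.15 for Dlk1. In this order the library ranges of Igf2 and Igf2r overlapped, as did those of Grb10 and Mest, and those of Cdkn1c, Plagl1 and Peg3 each with the next, so these neighbours were not set apart. H19, Meg3 and Dlk1 stood apart from their neighbours in every library. This order rests on exon lengths joined over all annotated transcripts, 18089 bases for Meg3 and 2039 for Cdkn1c. Which transcripts are used in cushions was not measured. By mean CPM, without length, Meg3 at 201 was above Cdkn1c at 183. The 10 genes together took 1.96% to 2.03% of gene reads in wildtype and 1.76% and 1.91% in mutant libraries. The maternally expressed members took 1.58% and 1.44% in wildtype and 1.24% and 1.40% in mutant replicates 1 and 2, and the paternally expressed ones 0.448% and 0.518% in wildtype and 0.520% and 0.511% in mutant.

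**Figure D1:**
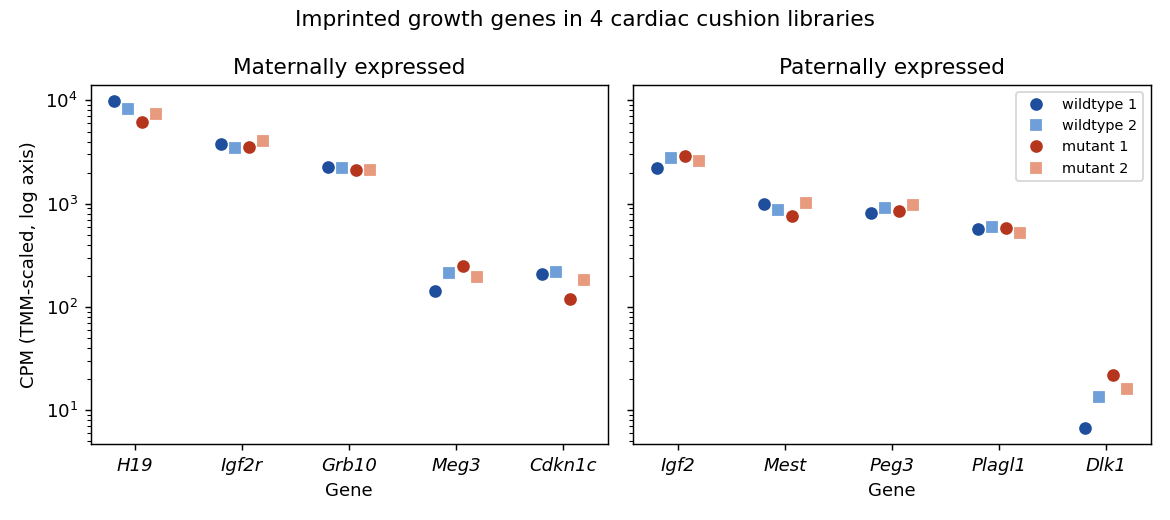
CPM (log axis) of the 5 maternally and the 5 paternally expressed genes; each point is 1 library, circles replicate 1 and squares replicate 2. H19, Cdkn1c and, by little (log2 fold change -0.065), Grb10 were lower and Dlk1 higher in both mutant libraries (red) than in both wildtype libraries (blue). The other members overlapped. Of all tested genes, 33.2% did not overlap.

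Comparing the genotypes asks whether loss of Brg1 from endocardial cells alters these genes. None of the 10 passed: edgeR (quasi-likelihood F test, adjusted p under 0.05) called 0 members, and 9 of 14316 genes in all (0.0629%, of which 0.0559% were higher and 0.00699% lower). Before adjustment, 3 members had p under 0.05, against 5.78% of all genes; Dlk1 was the 1 higher (3.88% of all genes) and Cdkn1c and H19 the 2 lower (1.90%). DESeq2 called 0 members (0.394% of all genes) and edgeR with the replicate block 0 (0.887%). With a stricter filter on CPM edgeR called 0 (0.0813%), and with no filter 2, Dlk1 and Cdkn1c (1.18%). It called 0 members without wildtype replicate 1 (0.0411%), wildtype replicate 2 (0.0203%) or mutant replicate 1 (1.24%), and 3, which were H19, Cdkn1c and Dlk1, without mutant replicate 2 (3.0%). The libraries of the genotypes did not overlap in CPM for 4 members (Dlk1 above; H19, Cdkn1c and Grb10 below), as for 33.2% of all genes (17.0% above, 16.3% below). The median log2 fold change was -0.065 over the 5 maternally expressed members, 0.092 over the 5 paternally expressed ones and -0.0027 over all tested genes.

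Among the maternally expressed members, H19, a long noncoding RNA that restrains growth in the embryo (chromosome 7, 142575529 to 142578143, minus strand, mm10), gave 9810 and 8295 CPM in the wildtype libraries against 6177 and 7320 CPM in the mutant ones. Both mutant libraries lay below both wildtype libraries. The log2 fold change was -0.42 ± 0.18 (SE; 95% interval -0.82 to -0.025), a ratio of 0.746, with an edgeR adjusted p of 0.819. Without mutant replicate 2, the male library, it was -0.55 with an adjusted p of 0.0345, while without mutant replicate 1 it was -0.31 with an adjusted p of 0.963. H19 followed the same order over the libraries as the sum of the cardiomyocyte markers. That sum was 75500 and 67100 CPM against 58800 and 64300 CPM, a ratio of mutant to wildtype means of 0.864. Of it, Ttn alone gave 37500 and 34650 CPM in wildtype against 29550 and 31330 CPM in mutant libraries. The median log2 difference over the markers was -0.40 in pair 1 and 0.0081 in pair 2, so they did not fall as a set in pair 2. Per 100 CPM of those markers, H19 gave 13 and 12.4 CPM in the wildtype libraries against 10.5 and 11.4 CPM in the mutant ones, and the part of the markers in its difference was not tested.

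Cdkn1c, which encodes p57Kip2, an inhibitor of cyclin-dependent kinases (chromosome 7, 143458339 to 143461050, minus strand), gave 208 and 221 CPM in the wildtype libraries against 118 and 184 CPM in the mutant ones. Mutant replicate 1 was the lowest, and mutant replicate 2 also lay under both wildtype libraries. The log2 fold change was -0.50 ± 0.19 (SE; 95% interval -0.94 to -0.071), with an edgeR adjusted p of 0.750. Leaving out mutant replicate 2 gave -0.85 (adjusted p = 0.000196), and leaving out mutant replicate 1 gave -0.22 (adjusted p = 1). In the authors' deposited table its log2 fold change was -0.53, mutant over wildtype, with an adjusted p of 0.295.

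Meg3, a long noncoding RNA (chromosome 12, 109541001 to 109571726, plus strand), gave 145 and 213 CPM in the wildtype libraries against 249.9 and 196 CPM in the mutant ones. The groups overlapped, since mutant replicate 2 lay between the wildtype libraries. The log2 fold change was 0.32 ± 0.19 (SE), with an edgeR adjusted p of 0.952.

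Igf2r (chromosome 17, 12682406 to 12769664, minus strand) gave 3757 and 3467 CPM in the wildtype libraries against 3548 and 4081 CPM in the mutant ones, with a log2 fold change of 0.079 and a 95% interval of -0.28 to 0.44. Grb10, an adaptor that binds insulin and IGF receptors and restrains growth (chromosome 11, 11930508 to 12038683, minus strand), varied least of all members over the libraries. It gave 2259 and 2194 CPM in the wildtype libraries against 2137 and 2119 CPM in the mutant ones, with a log2 fold change of -0.065 and a 95% interval of -0.39 to 0.26. Neither interval reaches 0.5 on the log2 scale in size.

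Among the paternally expressed members, Dlk1, a transmembrane protein with EGF-like repeats that holds back differentiation of precursor cells (chromosome 12, 109452823 to 109463336, plus strand), showed the largest fold. It gave 6.76 and 13.3 CPM in the wildtype libraries against 21.96 and 16.0 CPM in the mutant ones, from 127, 211, 499 and 227 reads, with a counting error of 4.48% to 8.87% per library. Both mutant libraries lay above both wildtype libraries, and the wildtype libraries differed from each other more than wildtype replicate 2 did from mutant replicate 2. The log2 fold change was 0.93 ± 0.30 (SE; 95% interval 0.26 to 1.61), a 1.91-fold difference, with an edgeR adjusted p of 0.575. Leaving out 1 library gave 1.14 for mutant replicate 2 (adjusted p = 0.000113), 0.68 for mutant replicate 1 (adjusted p = 0.231), 1.49 for wildtype replicate 2 and 0.52 for wildtype replicate 1. Of the other tissues that could be in the dissection, hepatocyte markers (5 of 10 tested) summed to 8.79 and 9.47 CPM in the wildtype libraries and 13.1 and 20.8 CPM in the mutant ones, and skeletal muscle markers (3 of 8 tested) to 11.1 and 11.5 CPM and to 6.82 and 17.9 CPM; their part in the Dlk1 values was not tested. The authors' deposited table gives 0.98, mutant over wildtype, with an adjusted p of 0.0711.

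Igf2 (chromosome 7, 142650766 to 142666816, minus strand) gave 2208 and 2773 CPM in the wildtype libraries against 2918 and 2574 CPM in the mutant ones. The groups overlapped, and the log2 fold change was 0.14 ± 0.17 (SE; 95% interval -0.24 to 0.52; edgeR adjusted p = 0.979). An antisense row at the locus, Igf2as, had 323 to 510 reads per library, far fewer than the 36443 to 66312 of Igf2. The strand setting is not known, and any reads over both rows may have been left out as ambiguous. The low count therefore does not measure antisense expression.

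Peg3, a zinc finger protein (chromosome 7, 6703892 to 6730431, minus strand), gave 807 and 903 CPM in the wildtype libraries against 854 and 968 CPM in the mutant ones, with a log2 fold change of 0.092 (95% interval -0.23 to 0.42). Plagl1, a zinc finger transcription factor known to act on other imprinted genes (chromosome 10, 13060504 to 13131694, plus strand), gave 563 and 602 CPM in the wildtype libraries against 586 and 518 CPM in the mutant ones, with a log2 fold change of -0.077 (95% interval -0.38 to 0.23). Mest, an enzyme of the hydrolase fold (chromosome 6, 30723547 to 30748465, plus strand), gave 1002 and 873 CPM in the wildtype libraries against 756 and 1015 CPM in the mutant ones, with a log2 fold change of -0.082 (95% interval -0.47 to 0.31). The genotypes overlapped in all 3 of these genes. In the GENCODE annotation 23.1% of the exon bases of Mest are shared with Copg2 on the opposite strand, so reads there cannot be assigned without a known strand setting.

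The size of the difference was larger in pair 1 than in pair 2 for 7 of the 10 members, a share near that of all tested genes (61.4%). In pair 1, log2 differences (mutant minus wildtype) were -0.67 for H19, -0.81 for Cdkn1c, 0.79 for Meg3, 0.40 for Igf2, -0.41 for Mest and 1.68 for Dlk1. In pair 2 the same genes were at -0.18, -0.26, -0.12, -0.11, 0.22 and 0.27, in that order. Grb10 was at -0.080 in pair 1 and -0.050 in pair 2. The 3 members larger in pair 2 were Igf2r, at -0.083 in pair 1 and 0.24 in pair 2, Plagl1, at 0.058 and -0.22, and Peg3, at 0.082 and 0.10. The sign differed between the pairs for 5 of them (Igf2r, Meg3, Igf2, Plagl1 and Mest). H19, Cdkn1c, Grb10, Dlk1 and Peg3 had the same sign in both pairs. The median size over all tested genes was 0.240 in pair 1 and 0.156 in pair 2.

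**Figure D2:**
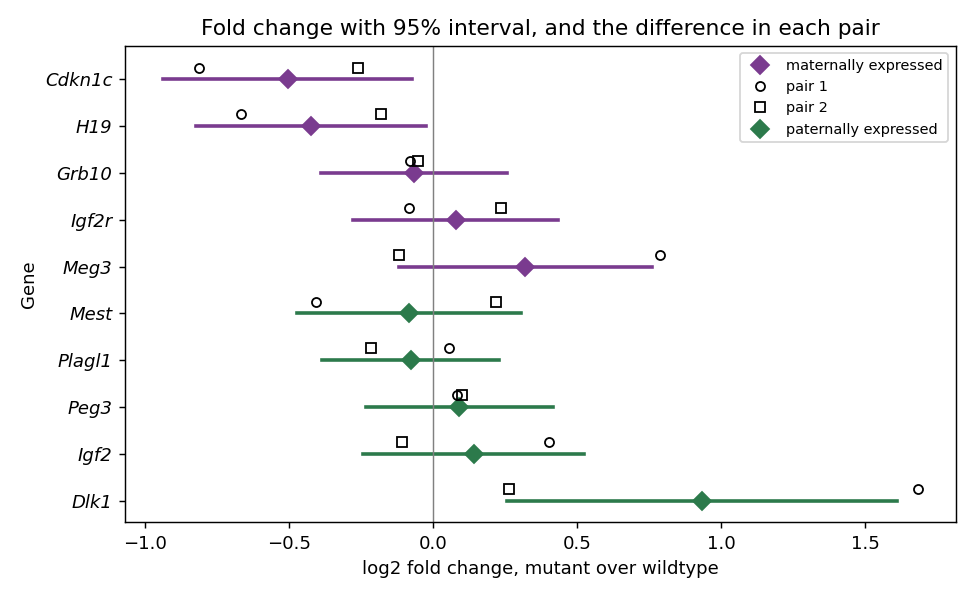
Log2 fold change (diamonds) with 95% intervals from edgeR for each gene, and the difference in pair 1 (open circles) and pair 2 (open squares). The intervals of Cdkn1c, H19 and Dlk1 leave out 0 before adjustment, and pair 1 lies farther from 0 than pair 2 in each of these 3.

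Ratios of reads within a library do not depend on scaling between libraries. H19 and Igf2 lie 72622 bases apart on chromosome 7. The number of H19 reads per Igf2 read was 4.44 and 2.99 in wildtype and 2.12 and 2.84 in mutant replicates 1 and 2. Both mutant libraries were lower than both wildtype libraries, though wildtype replicate 2 and mutant replicate 2 were close. The mean log2 ratio differed by -0.57 (mutant minus wildtype), -1.07 in pair 1 and -0.073 in pair 2. The exact permutation test (two-sided, 2 libraries against 2) gave p = 0.333, the smallest this design allows.

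Meg3 and Dlk1 lie 77664 bases apart on chromosome 12. There were 21.4 and 16.0 Meg3 reads per Dlk1 read in wildtype and 11.4 and 12.2 in mutant replicates 1 and 2. The groups did not overlap here either, and the mean log2 ratio differed by -0.65, by -0.91 in pair 1 and -0.39 in pair 2 (exact permutation p = 0.333, again the smallest possible). Both ratios were thus lower in the 2 mutant libraries, and neither difference could reach a threshold of 0.05. The genes behind them moved in unlike ways. The log2 fold change was -0.42 for H19 and 0.14 for Igf2, but 0.32 for Meg3 and 0.93 for Dlk1. The permutation tests of the ratios are 2, and adjustment leaves both at 0.333.

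**Figure D3:**
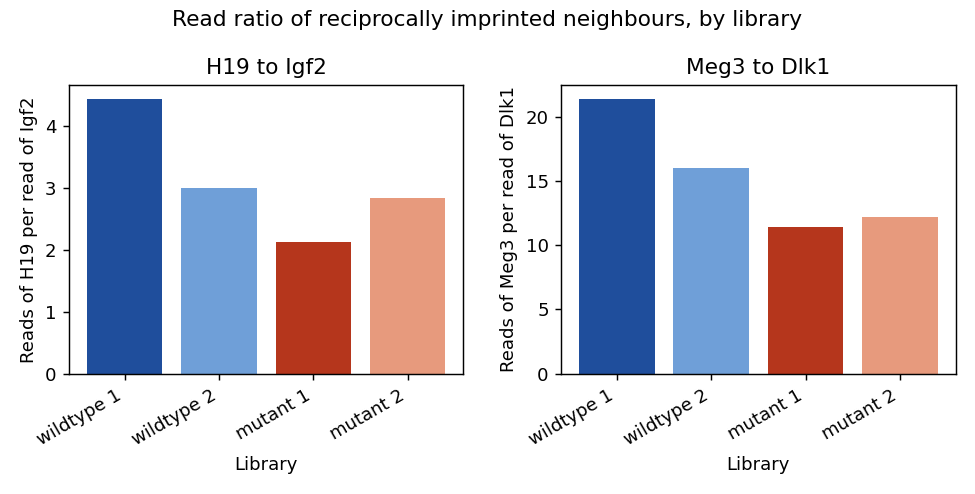
Reads of H19 per read of Igf2 (left) and of Meg3 per read of Dlk1 (right) in each library, as bars from 0. The mutant bars, at 2.12 and 2.84 and at 11.4 and 12.2, are lower than the wildtype bars.

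Ratios of other partners, chosen after the values were seen, overlapped between the genotypes. Igf2 reads per read of its clearance receptor Igf2r were 0.588 and 0.800 in wildtype and 0.823 and 0.631 in mutant replicates 1 and 2. Igf2r reads per read of Airn, the paternally expressed antisense RNA that silences Igf2r on that copy, were 32.1 and 30.9 in wildtype and 25.7 and 41.5 in mutant. Cdkn1c reads per read of Kcnq1ot1, the paternally expressed noncoding RNA of its domain, were 0.136 and 0.141 in wildtype and 0.0810 and 0.140 in mutant, so mutant replicate 1 alone was low. In the GENCODE annotation Airn overlaps the span of Igf2r and Kcnq1ot1 lies within that of Kcnq1, each on the opposite strand. With the strand setting unknown, the Airn and Kcnq1ot1 rows may hold reads of the overlapping gene.

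Other imprinted genes were compared in the same way. The lists hold genes by their known class, which need not hold in cushions. Of 24 other genes listed as maternally expressed, 19 could be tested and 0 passed by edgeR (0.0629% of all genes) or DESeq2 (0.394%). Their median log2 fold change was -0.026. At an unadjusted p under 0.05 (edgeR), 1 was higher (3.88% of all genes) and 0 lower (1.90%). Gnas, which encodes the stimulatory G protein alpha subunit, measured 0.13 ± 0.14 (log2 fold change ± SE) and Ube3a, a ubiquitin ligase, -0.22 ± 0.13. The gene at an unadjusted p under 0.05, named after its value was seen, was Klf14, a Krüppel-like transcription factor on chromosome 6 near Mest and Copg2. It gave 2.34 and 1.70 CPM in the wildtype libraries against 4.67 and 6.36 CPM in the mutant ones, a 2.68-fold difference (log2 1.42 ± 0.31 SE; edgeR adjusted p = 0.207, or 0.0393 with the replicate block), from 27 to 106 reads.

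Of 25 other genes listed as paternally expressed, 24 had a row, 19 could be tested and 0 passed by edgeR (0.0629% of all genes) or DESeq2 (0.394%). Their median log2 fold change was -0.049. At an unadjusted p under 0.05 (edgeR), 1 was higher (3.88% of all genes) and 1 lower (1.90%). Kcnq1ot1 measured -0.16 ± 0.14 and Slc38a4, an amino acid transporter, -0.23 ± 0.16. Named after their values were seen, Peg10, a retrotransposon-derived gene, gave 85.95 and 96.8 CPM in the wildtype libraries against 126 and 127 CPM in the mutant ones (log2 0.47 ± 0.13; edgeR adjusted p = 0.377), and Usp29, a ubiquitin protease gene beside Peg3, was at -0.40 ± 0.18. Snrpn and Snurf were listed at 0 reads in each library. In the GENCODE annotation Snurf lies within the span of Snrpn on the same strand. Reads over both may have been left out as ambiguous, so the 0 does not show that either gene was silent.

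In the IGF pathway, 22 of 26 genes could be tested and 0 passed by edgeR or DESeq2, with a median log2 fold change of -0.017. Without adjustment, edgeR p was under 0.05 for 3 of the 22, against 5.78% of all genes. Igfbp5, an IGF-binding protein and the most abundant tested gene of the list by CPM, measured -0.11 ± 0.14, and Igf1r, the receptor through which IGF2 signals, 0.12 ± 0.14. The 3 at an unadjusted p under 0.05, named after their values were seen, were Irs2, a docking protein of insulin and IGF receptors, at 0.55 ± 0.20, and the binding proteins Igfbp4 at -0.29 ± 0.13 and Igfbp7 at -0.43 ± 0.16. Of factors listed as acting on methylation or chromatin at imprinted loci, 16 of 18 were tested, with a median of 0.096 and 0 at an unadjusted p under 0.05 or called by edgeR or DESeq2. Dnmt3a, a DNA methyltransferase, measured 0.13 ± 0.13 and Smchd1, a chromatin protein, -0.082 ± 0.13. Among CDK inhibitors, D cyclins and the kinases Cdk2, Cdk4 and Cdk6, listed beside Cdkn1c, 11 of 12 were tested, with a median of 0.088. Of these, 0 were at an unadjusted p under 0.05 or called by edgeR or DESeq2. The cyclins Ccnd2 and Ccnd3 measured 0.31 ± 0.14 and 0.22 ± 0.12.

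**Figure D4:**
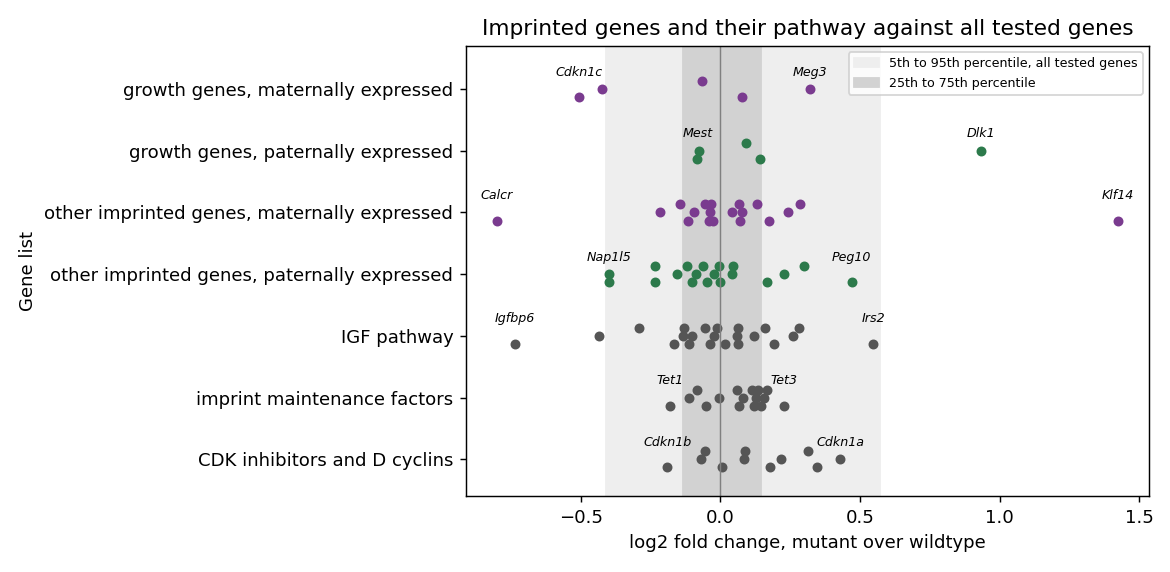
Log2 fold change (mutant over wildtype) of every tested gene of the imprinted growth genes, other imprinted genes and related lists, 1 point per gene, with the lowest and highest of each list named. Grey bands span the 5th to 95th and 25th to 75th percentiles of all 14316 tested genes; of the growth genes, Dlk1, Cdkn1c and H19 lie outside the wider band of -0.41 to 0.57, as do Klf14, Calcr, Igfbp6 and Igfbp7 of the other lists.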

How the data were processed

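The authors deposited raw read counts per gene symbol, 1 column per library. The tools named, per the submitters' processing notes, are TopHat2, Bowtie2, SAMtools, HTSeq and edgeR, and the build is mm10; for versions, annotation and strand the sources used here give nothing. Reads outside genes made up 51.8% to 54.4% of tallied reads, multiply aligned reads 16.1% to 17.0% and ambiguous reads 0.187% to 0.210%; these stayed out. The authors' deposited comparison table holds log2 fold changes and log2 CPM, a likelihood ratio score, p-values and a fold change ratio per gene, per the file headers; its signs were turned to mutant over wildtype.

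The test on these counts was that of edgeR 4.0.16 under R 4.3.3 (scaling by TMM, filterByExpr, quasi-likelihood F test, Benjamini-Hochberg adjustment over 14316 genes, threshold 0.05), after a test on simulated data. Each SE is the log2 fold change divided by the root of F, intervals are 95%, and log2 CPM for pairs used a prior count of 2. Alternatives were DESeq2 1.42.0, the replicate block, RLE scaling, other filters, the most abundant genes left out and each library left out. Intervals and counting errors cover no amplification error, since reads are not independent molecules. The series' text pairs mutants with littermates, and on that ground the numbers were read as pairs. The labels do not say that same-numbered libraries are littermates. Deviations of same-numbered libraries correlated at 0.144 across genes. With 2 libraries a group the swapped pairing gives the same size with the sign turned, so this value does not establish the pairing. GENCODE M21 (mm10) gave positions and exon lengths, and promoters and microRNAs from RefSeq GRCm38.p6. Adgre1 was read from its older symbol Emr1. Named were all 10 members and, per list, genes past the threshold (where under 2 were, the 2 highest by mean CPM); others are marked as chosen later. Members and lists were chosen with earlier results of these data known.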

Additional observations from a re-analysis of the deposited data

How the results depend on the processing

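The count of genes past the threshold was 9 in the fit without a block and became 127 with the replicate block, 236 without a filter on low counts and 59 with DESeq2; leaving out 1 library gave 3 (wildtype replicate 2) to 443 (mutant replicate 2). The count of imprinted growth genes past it was 0, and 0 with the replicate block, 2 without a filter (Dlk1, adjusted p = 0.00145, and Cdkn1c, 0.0478) and 0 to 3 with 1 library left out; the 3 were H19, Cdkn1c and Dlk1 without mutant replicate 2. The cause was not tested. The replicate block changed the call of no member. Residual degrees of freedom were 2 without it and 1 with it. Prior degrees of freedom, borrowed from the other genes, averaged 7.14 without it and 21.9 with it. For the log2 ratios the replicate block (the mean within pairs) gives -0.57 for H19 to Igf2 and -0.65 for Meg3 to Dlk1, which with 2 balanced pairs equals the difference of group means by arithmetic and tests nothing. With 1 library left out, the ratios ranged from -0.86 to -0.29 (H19 to Igf2; -0.29 without wildtype replicate 1) and from -0.86 to -0.44 (Meg3 to Dlk1). In the same fits, signs turned for Igf2 (-0.0097 to 0.31), Mest (-0.31 to 0.11), Igf2r (-0.021 to 0.18) and Plagl1 (-0.17 to 0.014), and ranges were -0.55 to -0.29 for H19, -0.85 to -0.22 for Cdkn1c, 0.072 to 0.63 for Meg3, 0.52 to 1.49 for Dlk1, 0.0044 to 0.18 for Peg3 and -0.088 to -0.040 for Grb10. With 1 library left out, the lone library of a genotype is assumed to vary like the other group. Depth limits Dlk1 most, the member of fewest reads.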

Other observations

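Values of neighbours in 3 imprinted domains follow. In the Dlk1 domain on chromosome 12, Rian, a maternally expressed noncoding RNA downstream of Meg3, gave 378 and 349 CPM in the wildtype libraries against 390 and 371 CPM in the mutant ones, with a log2 fold change of 0.068 ± 0.13 (SE), while Meg3 varied from 145 to 249.9 CPM. Rian reads per Meg3 read were 2.61 and 1.64 in wildtype and 1.56 and 1.89 in mutant libraries. Mirg, the noncoding RNA farther along, gave 5.43 and 4.99 CPM in the wildtype libraries against 5.90 and 6.85 CPM in the mutant ones, with a log2 fold change of 0.28 ± 0.23. Rtl1, a paternally expressed retrotransposon-derived gene, was at -0.087 ± 0.48. In the Cdkn1c domain on chromosome 7, where Cdkn1c was at -0.50, the log2 fold change was -0.16 ± 0.14 for Kcnq1ot1, -0.15 ± 0.29 for Tssc4, -0.042 ± 0.16 for Cd81, a tetraspanin, -0.034 ± 0.18 for Kcnq1, a potassium channel subunit, and 0.078 ± 0.15 for Osbpl5, an oxysterol-binding protein. On chromosome 6, Sgce, a sarcoglycan transcribed away from Peg10, was at -0.12 ± 0.16 and Peg10 at 0.47 ± 0.13. These genes were chosen after their values were seen, and the differences between neighbours were not tested.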
